A study of Mus musculus with 10 samples.

Results

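Fibroblast growth factor (FGF) signalling was followed through 44 genes of the 49671 listed: the numbered FGF genes, their receptors and docking proteins, the FLRT membrane partners, the ETS factors Etv1, Etv4 and Etv5, and the inhibitors of the Sprouty, Spred, Dusp6 and Il17rd kind. They were selected by a pattern of gene symbols. Counts were sufficient to test 34 of them, 6 had counts too few to test and 4 had no count in any library.

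RNA was measured in 10 libraries, each from GFP-positive cells sorted from 1 mouse embryo at embryonic day 10.5 on a mixed 129/Sv-C57BL/6 background. The 5 p53_activated embryos had the genotype Wnt1Cre;R26mTmG;p53LSL-25,26/+, in which Cre recombinase releases a stabilised p53 protein from one engineered Trp53 allele while the other allele is normal. The 5 control embryos were littermates of the genotype Wnt1Cre;R26mTmG;p53+/+. All embryos of both groups thus carried the Wnt1Cre transgene and the R26mTmG reporter, which turns cells green after recombination. Wnt1-Cre acts in the dorsal neural tube and the midbrain as well as in the neural crest that leaves it, so the sorted cells can include neural tube cells.

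FGFs are secreted ligands that bind heparan sulphate and receptor tyrosine kinases. The activated receptor recruits the docking protein Frs2 and passes the signal through Ras and Raf to the kinase ERK. Among the genes that ERK signalling switches on are the ETS factors Etv4 and Etv5, and the inhibitors Spry, Dusp6 and Il17rd, which act back on the pathway, as Spred proteins also do. In the embryo at this stage Fgf8 from the pharyngeal arch ectoderm acts on the arch mesenchyme made by neural crest, and Fgf8 and Fgf17 from the isthmus, the boundary of midbrain and hindbrain, pattern the neighbouring neural tube.

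The labels were checked on Cdkn1a, the p21 gene, which p53 induces. It averaged 105 ± 11.9 CPM (read counts scaled to library size by TMM) in p53_activated libraries and 7.93 ± 1.59 CPM in control libraries (SD, n = 5 each). Mdm2, the p53 antagonist that p53 itself induces, had a log2 fold change of 0.95 (edgeR adjusted p = 2.48e-05), and Trp53 had 0.67 (adjusted p = 0.0264, lost without control replicate 2 or 3 or p53_activated replicate 4, at up to 0.0716). Library totals were 14644162 to 28379562 counts in the p53_activated group and 12368058 to 23514828 in the control group. All 10 markers of neural crest and arch mesenchyme were detected, with 2 lower in the p53_activated group (Snai2 and Prrx2, called in 10 and 11 of 22 alternatives) and summed levels of 311 to 376 CPM in p53_activated and 343 to 478 CPM in control libraries. Neuroepithelial, epithelial, neuronal, muscle, endothelial and blood markers were present in both groups, and in each of 6 marker lists 0 genes had a mean under 0.1 CPM. Endothelial and blood markers summed to 391 to 4827 CPM in p53_activated and 675.5 to 3623 CPM in control libraries. Epithelial markers summed to 43.6 to 134.5 CPM in p53_activated and 81.6 to 205 CPM in control libraries. Of 8 neuroepithelial markers 1 fell, and of 10 muscle and 7 endothelial or blood markers 0 passed (medians 0.09, -0.69 and -0.28). Over 22 alternatives the muscle list had 0 to 4 lower calls. Control replicates 1 and 2 had Hbb-y to Hbb-bh1 ratios of 4.97 and 2.69, while the p53_activated libraries had 1.83 to 2.08 and the other 3 control libraries 1.59 to 1.953. Those embryonic globins shift with developmental age.

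Of the FGF pathway genes 2 rose in p53_activated embryos and 0 fell. They were Etv4, an ETS transcription factor of the PEA3 group, and Il17rd, a membrane protein also called Sef that binds FGF receptors and dampens ERK signalling. By the same test, edgeR's quasi-likelihood test with Benjamini-Hochberg adjustment over all 14528 tested genes and a threshold of 0.05, 4.49% of tested genes rose and 2.74% fell, 7.23% in all. A further 3 results of the same fit lay near the threshold: Etv5, Dusp6 and Fgf15 had adjusted p-values of 0.0865, 0.0987 and 0.08. The median log2 fold change over the 34 tested members was 0.16, against -0.01 over all tested genes. In 2 members, again Etv4 and Il17rd, every p53_activated library was above every control library. Such separation was found in 8.07% of all tested genes, 4.54% higher and 3.52% lower. In bulk RNA fewer cells of a type and less RNA per cell cannot be told apart.

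**Figure D1:**
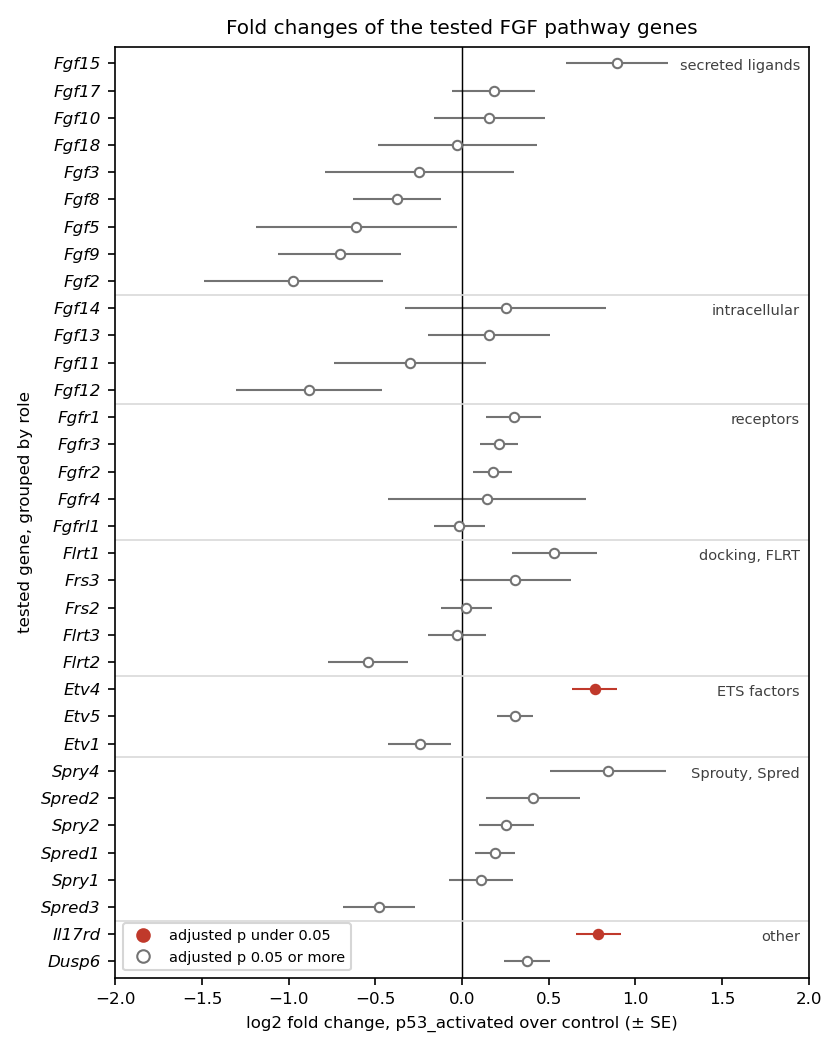
Log2 fold change (p53_activated over control, x axis) of each of the 34 tested genes, with its standard error, grouped by role. Filled red points mark the 2 genes with an adjusted p under 0.05, Etv4 and Il17rd.

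Etv4 had 95.1, 92.0, 87.8, 59.9 and 63.6 CPM in p53_activated replicates 1 to 5, against 45.3, 46.5, 43.4, 49.3 and 49.5 CPM in control replicates 1 to 5. Every p53_activated library lay above every control library, and replicates 4 and 5 were the lowest of their group. The means were 79.7 ± 16.6 CPM in p53_activated and 46.8 ± 2.60 CPM in control embryos (SD, n = 5 each). This is 1.70-fold, or 0.77 ± 0.13 on the log2 scale (SE, adjusted p = 0.00167 by edgeR). Without p53_activated replicates 4 and 5 the log2 fold change was 0.98, and without control replicates 1 and 2 it was 0.75, with edgeR adjusted p-values of 2.3e-05 and 0.015. On GRCm38 Etv4 (ENSMUSG00000017724) lies on chromosome 11 from 101769742 to 101785371 and shares no exon with another gene. In the authors' deposited table Etv4 had a log2 fold change of 0.73 (adjusted p = 5.24e-06).

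Etv5 and Etv1, the other PEA3 group factors, did not pass the test. Etv5 had 63.8, 61.5, 76.7, 58.1 and 64.9 CPM in p53_activated libraries, against 59.98, 46.5, 54.5, 51.2 and 50.9 CPM in control libraries. The groups overlapped only at p53_activated replicate 4 and control replicate 1. Its log2 fold change was 0.30 ± 0.10 (edgeR adjusted p = 0.0865), and 0 of 22 alternative analyses called it (adjusted p of 0.0523 to 0.182). Etv1 averaged 10.2 ± 1.26 CPM in p53_activated and 12.0 ± 2.89 CPM in control embryos, with a log2 fold change of -0.24 ± 0.18 (adjusted p = 0.472). Whether Etv4 and its relatives differed in their change was tested on the log2 ratio within each library, a test chosen after the values were seen. Etv4 had by then passed and its relatives had not, so the p-values are no independent evidence of a difference. The Etv4 to Etv5 ratio averaged 0.27 ± 0.29 in p53_activated and -0.17 ± 0.19 in control libraries (difference 0.44, exact two-sided permutation p = 0.0159, 0.0238 adjusted over 3 ratios). For Etv4 to Etv1 the log2 ratios averaged 2.95 ± 0.33 in p53_activated and 1.99 ± 0.42 in control libraries (difference 0.96, exact two-sided permutation p = 0.0159, adjusted 0.0238). Ranges of both ratios overlapped between the groups, and 0.00794 is the smallest p that 5 against 5 libraries allow.

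Il17rd had 31.1, 40.7, 30.6, 41.2 and 34.2 CPM in p53_activated replicates 1 to 5, against 18.8, 19.4, 22.5, 18.6 and 24.04 CPM in control replicates 1 to 5. The groups did not overlap, and replicates 2 and 4 were the highest of the p53_activated group. The means were 35.6 ± 5.12 CPM in p53_activated and 20.6 ± 2.47 CPM in control embryos. This is 1.72-fold, or 0.79 ± 0.13 on the log2 scale (SE, adjusted p = 0.00146 by edgeR). Without p53_activated replicates 4 and 5 the value was 0.74 (adjusted p = 0.0108) and without control replicates 1 and 2 it was 0.71 (adjusted p = 0.0116). The authors' deposited table gives Il17rd a log2 fold change of 0.75 (adjusted p = 1.99e-06). Il17rd (ENSMUSG00000040717) lies on chromosome 14 from 27038941 to 27107286 on GRCm38, and shares no exon with another gene.

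Dusp6, the phosphatase that removes the activating phosphates from ERK, had 59.4, 62.0, 57.7, 47.3 and 43.9 CPM in p53_activated libraries, against 38.0, 41.7, 52.0, 33.3 and 42.9 CPM in control libraries. Control replicate 3 lay above p53_activated replicates 4 and 5, so the groups overlapped. The log2 fold change was 0.38 ± 0.13 (edgeR adjusted p = 0.0987). Dusp6 passed without control replicate 3 (adjusted p = 0.0387) or without p53_activated replicates 4 and 5 (adjusted p = 0.0388), and in the other 20 of 22 alternatives it did not. The Il17rd to Dusp6 log2 ratio averaged -0.60 ± 0.33 in p53_activated and -1.003 ± 0.16 in control libraries (difference 0.40, exact two-sided permutation p = 0.0476, adjusted 0.0476). This ratio too was picked after Il17rd had passed and Dusp6 had not, so the p-value is no independent evidence of a difference. Its range was -0.93 to -0.20 in p53_activated and -1.21 to -0.84 in control libraries, so the groups overlapped.

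The start-site windows of Il17rd and Dusp6 are shown because both genes encode inhibitors of the same pathway and differ in whether they passed. Each window runs from 250 bases before to 50 bases after the RefSeq start on GRCm38.p6, both on the plus strand, at chr14:27038751-27039050 and chr10:99262981-99263280. The letters searched, on both strands, were AGGAAG, a core that ETS factors bind. The second motif was CCGGAAG, a longer ETS form. A further motif was TGANTCA, bound by AP-1, and the last was the p53 half-site. Capitals mark a match.
Il17rd: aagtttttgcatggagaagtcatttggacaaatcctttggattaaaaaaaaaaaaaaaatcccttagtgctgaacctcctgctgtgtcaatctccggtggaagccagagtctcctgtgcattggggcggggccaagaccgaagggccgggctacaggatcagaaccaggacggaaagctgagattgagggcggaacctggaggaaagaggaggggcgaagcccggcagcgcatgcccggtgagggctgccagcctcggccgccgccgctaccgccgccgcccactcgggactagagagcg
Dusp6: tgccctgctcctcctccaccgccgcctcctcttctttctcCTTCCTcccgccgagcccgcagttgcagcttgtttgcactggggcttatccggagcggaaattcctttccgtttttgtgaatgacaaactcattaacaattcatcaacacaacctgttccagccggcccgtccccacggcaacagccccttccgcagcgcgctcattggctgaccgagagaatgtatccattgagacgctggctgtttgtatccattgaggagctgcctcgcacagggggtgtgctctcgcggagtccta
The Il17rd window held no match to these letters, and the Dusp6 window held 1, AGGAAG on the minus strand. The ETS forms end alike but differ in the letter before, so a site on one strand cannot match both. In all 32851 windows of this length, 35.4% held AGGAAG and 8.86% the longer ETS form. The AP-1 motif was in 7.81% and the p53 half-site in 8.36%. Of the 12 ETS factors and inhibitors, 9 were searched, with 11 windows in all. Of these windows 4 held AGGAAG (in Dusp6, Etv1, Etv5 and Spred2) and 0 held any of the other motifs. Etv4, Spry3 and Spry4 were not searched, so the counts say nothing about their windows.

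None of the tested Sprouty and Spred genes, which encode inhibitors acting between receptor and ERK, passed the test. Their median log2 fold change was 0.22, with 5 of 6 above 0. Spry2, the highest of them per kilobase of exon, had 31.4, 28.2, 18.2, 20.3 and 21.9 CPM in p53_activated libraries, against 22.7, 19.4, 21.6, 16.6 and 20.2 CPM in control libraries. Replicates 1 and 2 of the p53_activated group were above all other libraries, and the remaining 3 lay within the control range. The log2 fold change of Spry2 was 0.26 ± 0.16 (edgeR adjusted p = 0.37). Spry4 had the largest value of the family, 0.84 ± 0.34 (adjusted p = 0.147), on 3.10, 5.36, 5.56, 8.66 and 2.71 CPM in p53_activated libraries, against 1.71, 2.67, 4.28, 2.49 and 3.06 CPM in control libraries. Replicates 2, 3 and 4 of the p53_activated group lay above all control libraries, and the other 2 within their range. Spred3 was below 0 at -0.48 ± 0.21 (adjusted p = 0.185), with 18.2, 15.0, 13.9, 14.1 and 17.7 CPM in p53_activated libraries, against 34.6, 26.0, 17.9, 15.3 and 15.95 CPM in control libraries. Its high values were those of control replicates 1 and 2, the libraries with the high globin ratios; the part of developmental age in this was not tested. Spred1 (0.19 ± 0.12), Spred2 (0.41 ± 0.27) and Spry1 (0.11 ± 0.19) had adjusted p-values of 0.353, 0.405 and 0.785. Spry3 was not tested, with 38 counts over the p53_activated and 65 over the control libraries. Over all 11 tested ETS factors and inhibitors 2 rose and 0 fell, and 9 log2 fold changes were above 0, with a median of 0.30. That median ran from 0.27 to 0.37 in 22 alternative analyses, with 9 above 0 in each. Of all tested genes 4.49% rose and 2.74% fell in the main analysis. Above 0 were 48.63% of them, with a median of -0.01.

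**Figure D2:**
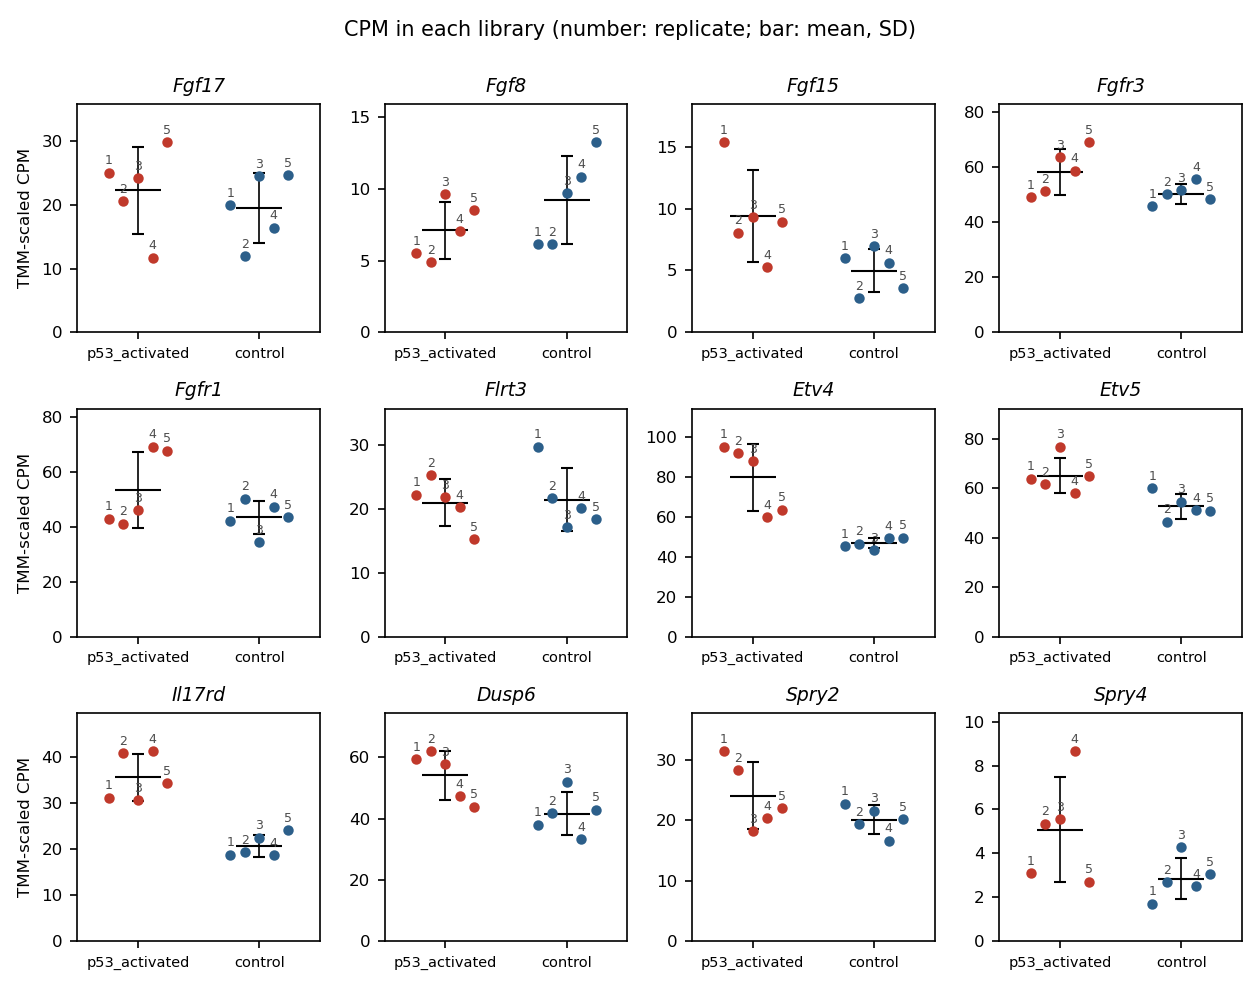
CPM of 12 genes (y axis, from 0) in each p53_activated (red, left) and control (blue, right) library, with the replicate number beside each point and the mean and SD of 5 libraries as black bars. Etv4 and Il17rd are separated between the groups, Fgf15 and Dusp6 overlap in part, and p53_activated replicates 4 and 5 are high for Fgfr1 and low for Etv4.

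The receptors did not pass the test. Fgfr3, the highest receptor per kilobase of exon, had 48.9, 51.2, 63.5, 58.6 and 69.0 CPM in p53_activated libraries, against 45.7, 50.1, 51.7, 55.5 and 48.3 CPM in control libraries. Replicates 3, 4 and 5 of the p53_activated group lay above all control libraries and the other pair within their range. The log2 fold change was 0.21 ± 0.11 (edgeR adjusted p = 0.268), although 13.94% of the exon length of Fgfr3 is shared with a gene on the opposite strand that had 28 counts in all. Fgfr1, the receptor whose loss disturbs the craniofacial mesenchyme, had 43.0, 41.2, 46.2, 69.2 and 67.7 CPM in p53_activated libraries, against 42.3, 50.3, 34.4, 47.3 and 43.4 CPM in control libraries. Here p53_activated replicates 4 and 5 stood above all other libraries and the other 3 lay within the control range (log2 fold change 0.30 ± 0.16, adjusted p = 0.289). Fgfr2 averaged 49.5 ± 3.73 CPM in p53_activated and 43.7 ± 5.93 CPM in control embryos (0.18 ± 0.11, adjusted p = 0.376). Fgfrl1, a receptor without the kinase domain, averaged 12.3 ± 0.89 CPM in p53_activated and 12.4 ± 1.92 CPM in control embryos, a log2 fold change of -0.02 ± 0.15 (adjusted p = 0.965). Fgfr4 was near 1 CPM in both groups (0.15 ± 0.57, adjusted p = 0.915).

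On a per-kilobase scale the kinase receptors kept similar proportions in both groups. Fgfr3 made up 43.7% ± 3.54 of the summed per-kilobase level of Fgfr1 to Fgfr4 in p53_activated and 44.2% ± 2.23 in control libraries (SD, n = 5 each). Fgfr1 made up 28.8% ± 4.42 in p53_activated and 27.7% ± 2.999 in control libraries. For Fgfr2 the shares were 26.1% ± 4.43 in p53_activated and 26.6% ± 2.37 in control libraries, and for Fgfr4 1.39% ± 0.89 in p53_activated and 1.48% ± 0.46 in control libraries. Each difference was smaller than the SD within the groups. Fgfr1 reached 35.1% and 31.7% in p53_activated replicates 4 and 5, against 24.9% to 26.1% in the other p53_activated libraries and 22.6% to 29.8% in control libraries.

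**Figure D3:**
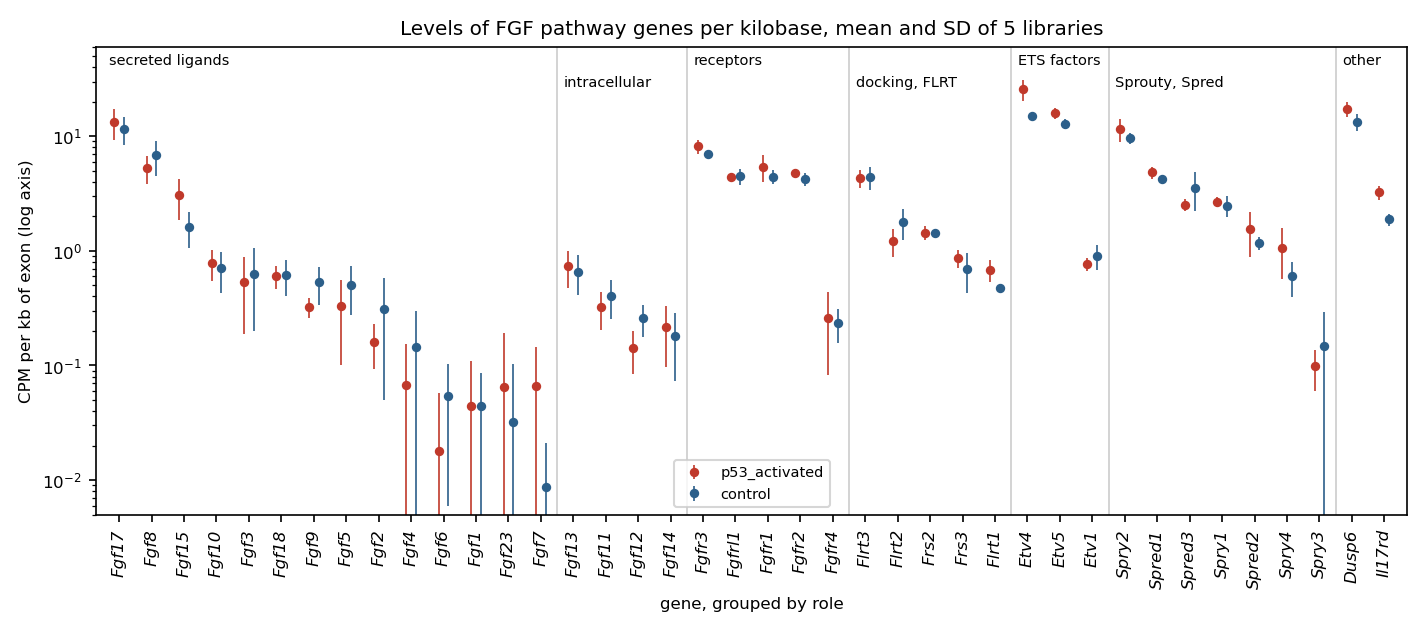
Mean CPM per kilobase of exon (log axis, with SD of 5 libraries) of the 40 genes with a count, p53_activated in red left of control in blue. Etv4, Dusp6, Etv5, Fgf17 and Spry2 are the highest genes, and most ligands lie below 1 CPM per kilobase.

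Levels per kilobase, which allow genes to be compared, were highest for Etv4 (25.7 in p53_activated and 15.1 in control, in CPM per kilobase), Dusp6 (17.3 and 13.3), Etv5 (15.8 and 12.8), Fgf17 (13.2 and 11.6) and Spry2 (11.5 and 9.62). In control libraries Dusp6 and Etv5 did not differ beyond their spread (SD of 2.21 and 1.22), and neither did Etv4 and Dusp6. In p53_activated libraries Etv4 had the highest mean. The exon lengths are those of all annotated transcripts joined, so a gene with long minor transcripts has its level understated.

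No secreted ligand passed the test. Of 18 ligand genes 9 were tested, with a median log2 fold change of -0.25 and 3 above 0. Fgf17, the highest ligand, had 25.1, 20.6, 24.2, 11.7 and 29.8 CPM in p53_activated libraries, against 19.96, 12.0, 24.5, 16.4 and 24.7 CPM in control libraries. The groups overlapped over almost their whole range, and the low libraries were p53_activated replicate 4 and control replicate 2 (log2 fold change 0.18 ± 0.24, edgeR adjusted p = 0.714). Fgf8, the main ligand of the isthmus and the arch ectoderm, had 5.51, 4.88, 9.62, 7.08 and 8.53 CPM in p53_activated libraries, against 6.14, 6.13, 9.72, 10.9 and 13.3 CPM in control libraries. Control replicates 4 and 5 were the highest and the rest of the groups overlapped (-0.37 ± 0.25, adjusted p = 0.42).

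Fgf15, the mouse counterpart of human FGF19 and a ligand made in the midbrain and hindbrain, had 15.3, 8.03, 9.30, 5.24 and 8.95 CPM in p53_activated libraries, against 5.97, 2.75, 6.94, 5.61 and 3.57 CPM in control libraries. All p53_activated libraries but replicate 4 lay above all control libraries, and replicate 4 lay within the control range. The log2 fold change was 0.90 ± 0.30 (edgeR adjusted p = 0.08). It passed in 4 of 22 alternatives, among them DESeq2 (adjusted p = 0.0346) and the fit without p53_activated replicate 4 (adjusted p = 0.037), and the authors' deposited table gives 0.71 (adjusted p = 0.0312). Of all genes given an adjusted p, DESeq2 called 9.48%, and 10.8% were under 0.05 in the authors' deposited table. The count of Fgf15 is uncertain, since 25.74% of its exon length is shared with genes on the opposite strand and the strand setting of the counting is not given in the sources used here. Gm26793, one of these, averaged 6.26 ± 3.58 CPM in p53_activated and 3.25 ± 0.54 CPM in control libraries (0.93 ± 0.36, adjusted p = 0.132).

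Fgf15 lies on chromosome 7 of GRCm38 from 144896531 to 144900953, in a row with Fgf3 (144838083 to 144844436), Fgf4 (144847367 to 144865243) and the cyclin D1 gene Ccnd1 (144929931 to 144939925). Ccnd1, which drives entry into the cell cycle and responds to ERK, averaged 70.9 ± 13.5 CPM in p53_activated and 39.2 ± 5.58 CPM in control embryos, a log2 fold change of 0.85 ± 0.14 (edgeR adjusted p = 0.00109). The part of its exon length shared with an opposite-strand gene was 23.36%. Fgf3 did not pass, at 1.25 ± 0.81 CPM in p53_activated and 1.46 ± 1.00 CPM in control embryos, and Fgf4 had too few counts to test, with 19 in p53_activated and 40 in control libraries.

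Isthmic genes were read beside these ligands, since Wnt1-Cre is also active in the midbrain. Of 11 tested isthmic genes 0 passed in either direction, 10 had log2 fold changes above 0, and the median was 0.38. Over all tested genes 48.63% were above 0, with a median of -0.01. Wnt1, made at the isthmus and in the dorsal midline, had 39.0, 25.8, 38.7, 29.5 and 32.2 CPM in p53_activated libraries, against 13.1, 12.3, 40.7, 19.3 and 17.9 CPM in control libraries (0.67 ± 0.29, edgeR adjusted p = 0.201). Control replicate 3 lay above all other libraries and the rest of the control group below all p53_activated libraries. Without control replicate 3 Wnt1 passed, at 1.09 (adjusted p = 0.00192), as it did with the replicate block at an adjusted p of 0.0434. Without control replicates 1 and 2 its value was 0.34. The 12 genes of the list summed to 125 to 190.4 CPM in p53_activated and 90.5 to 179 CPM in control libraries. The lowest sums were in p53_activated replicate 4 and control replicate 2, the libraries with the least Fgf17 and Fgf15 in each group. The part of midbrain and hindbrain cells in the Fgf15 values was not tested.

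Of the remaining ligands, Fgf9 had 1.58, 1.58, 1.44, 1.84 and 1.04 CPM in p53_activated libraries, against 1.08, 2.44, 2.37, 2.87 and 3.57 CPM in control libraries, and did not pass (log2 fold change -0.70 ± 0.36, edgeR adjusted p = 0.255). All control libraries but replicate 1 lay above all p53_activated libraries. Epithelial markers, which name the tissue that makes Fgf8 and Fgf9 in the arches, summed to 64.6, 64.6, 43.6, 134.5 and 113 CPM in p53_activated libraries, against 93.3, 81.6, 98.9, 201 and 205 CPM in control libraries. The high epithelial sums in control replicates 4 and 5 coincided with the highest Fgf8 and Fgf9 values. In the p53_activated group the lowest sum was in replicate 3, which had the most Fgf8 of its group. Replicate 4, with the highest sum, had the most Fgf9. Replicate 5, with the second highest sum, had the second most Fgf8 and the least Fgf9. Sorting for GFP would be taken to leave out epithelium in which Cre was not active. None of 11 tested epithelial markers passed, and 1 had a log2 fold change above 0, with a median of -0.80. Over 22 alternatives the epithelial list had 0 to 5 lower and 0 higher calls. The part of epithelium in the ligand values was not tested. Fgf2, a broadly acting growth factor, had its highest level, 5.06 CPM, in control replicate 1 (-0.97 ± 0.52, adjusted p = 0.282). Fgf10, a mesenchymal ligand that acts on epithelium (0.16 ± 0.32), Fgf18 (-0.03 ± 0.46) and Fgf5 (-0.61 ± 0.58) had adjusted p-values of 0.822, 0.982 and 0.591.

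Fgf1, Fgf4, Fgf6, Fgf7 and Fgf23 had 15 to 59 counts over the 10 libraries and were not tested. Fgf7 had 17 counts in p53_activated libraries, all in replicates 1 to 3, and 2 in control libraries. Fgf16, Fgf20, Fgf21 and Fgf22 were at 0 in all libraries.

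The intracellular FGF homologous factors, which stay in the cell and bind sodium channels of neurons, were low and did not pass. Fgf13, the highest of the 4 per kilobase, had 2.75, 1.42, 2.81, 3.82 and 4.09 CPM in p53_activated libraries, against 3.81, 1.18, 3.28, 2.23 and 2.77 CPM in control libraries. The groups overlapped throughout (log2 fold change 0.16 ± 0.35, edgeR adjusted p = 0.842). Fgf12 averaged 0.88 ± 0.36 CPM in p53_activated and 1.60 ± 0.51 CPM in control libraries (-0.88 ± 0.42, adjusted p = 0.229), and Fgf11 (-0.30 ± 0.44) and Fgf14 (0.25 ± 0.58) had adjusted p-values of 0.742 and 0.848. Of 12 genes of differentiating neurons 9 fell and 0 rose, with a median of -0.86. Over all tested genes 2.74% fell and 4.49% rose, with a median of -0.01. The summed level of the neuronal genes was 383 to 593 CPM in p53_activated and 735 to 950.0 CPM in control libraries, with no overlap between the groups. The part of neurons in the levels of the FGF pathway genes was not tested.

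Docking proteins and FLRT proteins, membrane partners of the receptors, did not pass. Frs2, the adaptor through which the receptors reach Ras, averaged 12.6 ± 1.82 CPM in p53_activated and 12.4 ± 0.93 CPM in control embryos (log2 fold change 0.03 ± 0.15, edgeR adjusted p = 0.945). Flrt3, which is made where FGF acts and promotes its signal, had 22.2, 25.3, 21.8, 20.3 and 15.3 CPM in p53_activated libraries, against 29.7, 21.7, 17.2, 20.1 and 18.4 CPM in control libraries. Their ranges overlapped, and the log2 fold change of -0.03 ± 0.17 (adjusted p = 0.945) changed sign in some alternatives. Flrt1 had 2.96, 3.94, 3.67, 5.37 and 4.16 CPM in p53_activated libraries, against 2.90, 2.75, 3.07, 2.49 and 2.70 CPM in control libraries. Only p53_activated replicate 1 lay within the control range, yet the gene did not pass (0.53 ± 0.24, adjusted p = 0.205). Flrt2 averaged 9.39 ± 2.54 CPM in p53_activated and 13.8 ± 4.27 CPM in control embryos (-0.54 ± 0.23, adjusted p = 0.174), with its highest values, 19.8 and 16.3 CPM, in control replicates 1 and 2. Frs3 averaged 2.71 ± 0.47 CPM in p53_activated and 2.18 ± 0.84 CPM in control embryos (0.31 ± 0.32, adjusted p = 0.628).

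**Figure D4:**
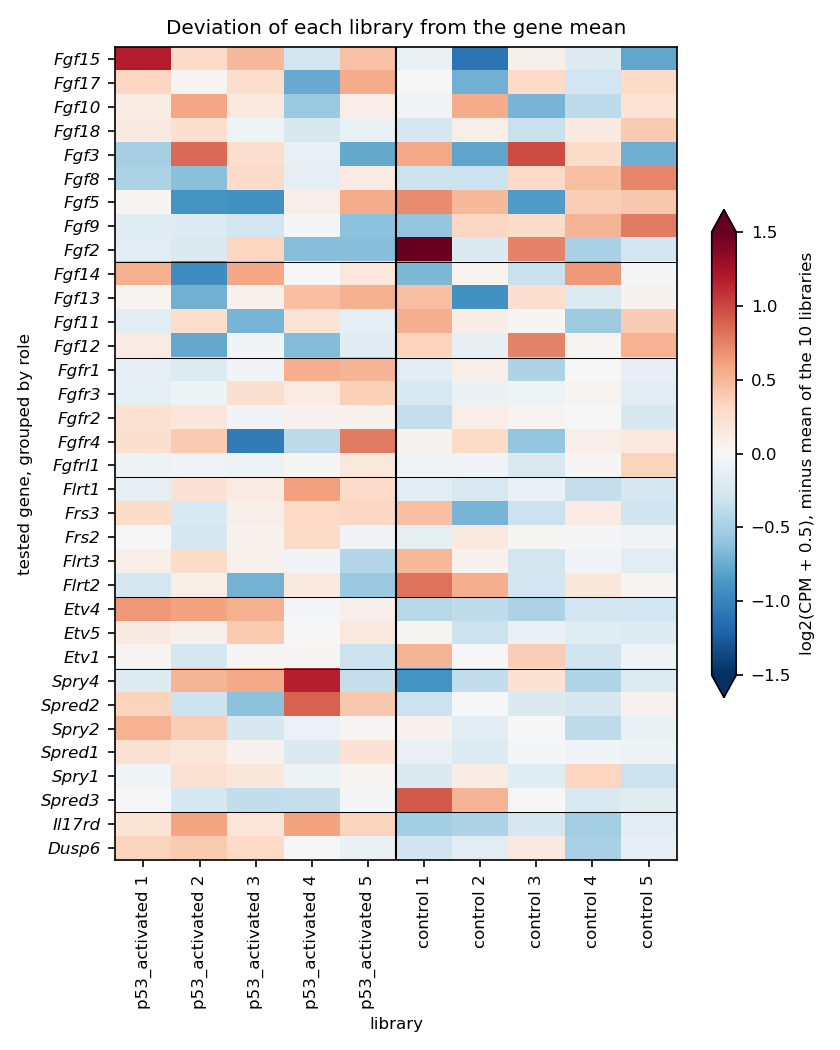
Deviation of log2(CPM + 0.5) from the mean of the 10 libraries (colour) for the 34 tested genes, grouped by role, in p53_activated (left) and control (right) libraries. Etv4 and Il17rd are red in the p53_activated libraries and blue in the control libraries (Etv4 is near the mean in p53_activated replicates 4 and 5), while most other rows mix both colours within a group.

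Around the receptors, genes of the heparan sulphate chains and their carrier proteins were read from a list of 28, of which 23 were tested. Of these 5 rose and 0 fell, and their median was 0.21 on the log2 scale. Of all tested genes 4.49% rose. Without overlap between the groups 4 tested genes of the list were higher and 1 lower, against 4.54% and 3.52% of all tested genes. The lower gene was Ext2, which did not pass (-0.33 ± 0.10, edgeR adjusted p = 0.0604). Over 22 alternatives the list had 3 to 8 higher and 0 to 1 lower calls. Hspg2, the basement membrane proteoglycan perlecan, had 93.0, 117, 109, 152 and 128 CPM in p53_activated libraries, against 68.3, 65.1, 53.5, 57.4 and 61.5 CPM in control libraries. Every p53_activated library lay above every control library (log2 fold change 0.97 ± 0.12, edgeR adjusted p = 8.91e-05). Sulf2, which removes sulphate groups from heparan sulphate outside the cell, had 158, 171, 163, 202 and 181 CPM in p53_activated libraries, against 106, 115, 89.7, 95.6 and 92.2 CPM in control libraries. The groups were again apart (0.81 ± 0.10, adjusted p = 5.7e-05), whereas its relative Sulf1 had a log2 fold change of -0.33 ± 0.16 (adjusted p = 0.244). Gpc4, a glypican, averaged 15.3 ± 0.70 CPM in p53_activated and 9.05 ± 0.76 CPM in control embryos (0.76 ± 0.14, adjusted p = 0.00272). Sdc1, a syndecan, averaged 193 ± 10.9 CPM in p53_activated and 153 ± 10.6 CPM in control embryos (0.34 ± 0.08, adjusted p = 0.0201), and its call was lost without p53_activated replicate 2 or with the replicate block (adjusted p up to 0.0663). Hs6st1, a sulphotransferase acting at the position that Sulf2 clears, averaged 8.79 ± 3.42 CPM in p53_activated and 4.51 ± 1.12 CPM in control embryos (0.97 ± 0.28, adjusted p = 0.0479), a call kept in 6 of 22 alternatives and lost without each library but p53_activated replicate 1.

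**Figure D5:**
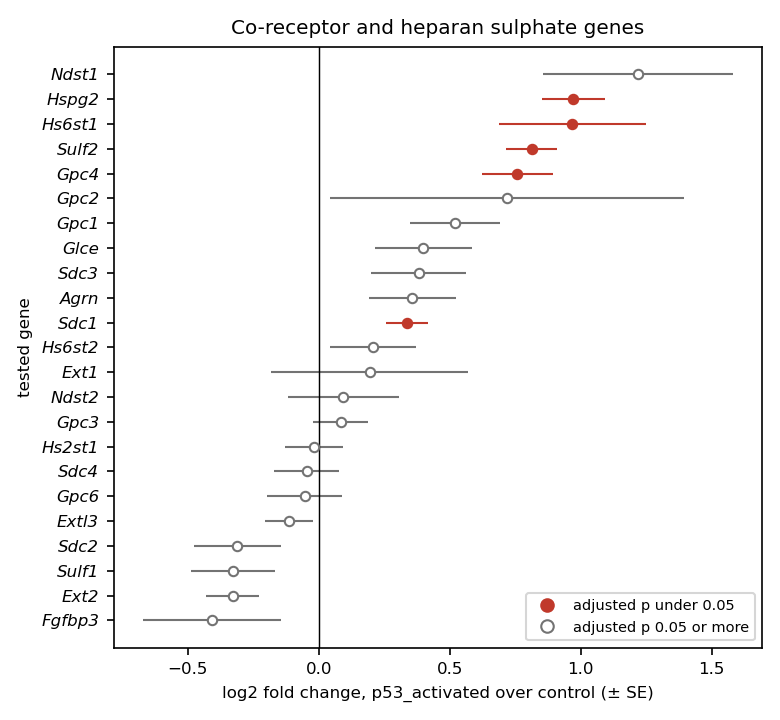
Log2 fold change (p53_activated over control, x axis) with its standard error for the 23 tested genes of co-receptors and heparan sulphate. The 5 filled red points, Hspg2, Hs6st1, Sulf2, Gpc4 and Sdc1, passed an adjusted p of 0.05.

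Between receptor and ERK, 2 of 29 tested genes rose and 0 fell, with a median log2 fold change of 0.07. The shares over all tested genes were 4.49% rising and 2.74% falling. Nf1, a brake on Ras, averaged 20.8 ± 5.98 CPM in p53_activated and 12.5 ± 1.76 CPM in control embryos (0.73 ± 0.19, edgeR adjusted p = 0.0271). The adaptor gene Crkl was the other (1.01 ± 0.28, adjusted p = 0.0384). Both calls were lost without p53_activated replicate 4 or 5, in which Crkl had 18.6 and 14.0 CPM and Nf1 28.8 and 24.9 CPM, against 5.85 to 8.77 and 14.2 to 19.1 CPM in the other p53_activated libraries. Other libraries whose removal ended a call were control replicates 3 and 5 for Nf1 and control replicates 1 to 5 for Crkl.

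Of 28 further tested genes that ERK signalling induces or that feed back on it, 2 rose and 0 fell, with a median of 0.25. The risen genes were Ccnd1 and Jun, and the shares over all tested genes were again 4.49% rising and 2.74% falling. Jun, a subunit of the factor AP-1, had 62.6, 58.5, 67.0, 36.5 and 43.0 CPM in p53_activated libraries, against 37.1, 22.6, 44.7, 33.2 and 29.3 CPM in control libraries (0.68 ± 0.19, edgeR adjusted p = 0.0486). Its groups overlapped. Removing any 1 library ended its call, except control replicate 3 or p53_activated replicate 4 (adjusted p of up to 0.158 over 22 alternatives). Of 17 tested arch mesenchyme genes that depend on Fgf8 or lie in its field, 0 passed in either direction, with a median of 0.21. Over 22 alternatives this list had 0 to 2 higher and 0 to 1 lower calls. Gsc, a homeobox gene of the arch mesenchyme, had the lowest log2 fold change of the list, -1.10 ± 0.31 (edgeR adjusted p = 0.057). It had 32.8, 30.7, 20.4, 19.4 and 21.5 CPM in p53_activated libraries, against 76.4, 84.5, 27, 38.9 and 41.0 CPM in control libraries. Control replicate 3 lay within the p53_activated range, and control replicates 1 and 2, with the high globin ratios, were the highest. Gsc passed in 6 of 22 alternatives, among them the replicate block (adjusted p = 0.00146) and the fit without control replicate 3 (adjusted p = 0.013). Without control replicates 1 and 2 its value was -0.51.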

How the data were processed

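RNA of sorted cells from 5 p53_activated and 5 control embryos was analysed. The deposited table of counts is unnormalized, with Ensembl identifiers, and its columns were matched to samples by the numbers in the labels. Per the submitters' processing notes, HISAT2 2.0.4, SAMtools 1.3.1, HTSeq 0.6.1, DESeq2 1.14.1 and GRCm38 were used, with no role stated. The sources used here give neither strand setting nor annotation release. A second deposited table holds, per the file headers, a mean normalized count (a signal), a log2 fold change, its error, a test statistic (a score) and p-values. Its header names no direction, which was read from Cdkn1a. Its signs then matched those computed here in 34 of 34 tested members and in 99.81% of all tested genes. Both come from the same 10 libraries, so this match is no independent support.

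Genes were kept by filterByExpr (minimum count 10, minimum total 15), leaving 14528 of 49671, and scaled by TMM. The quasi-likelihood test of edgeR 4.0.16 (R 4.3.3, robust dispersions, no covariate) was fitted on all genes, with Benjamini-Hochberg adjustment. The standard error is the log2 fold change over the square root of F. The procedure was tested on simulated data, drawn from the control means and the dispersions of this same fit. The simulated libraries were independent, and only genes above a minimum level were given a change. It therefore does not cover low-count members or structure among the libraries of a group. Exon lengths and positions are from GENCODE M21, which held 99.48% of the gene identifiers. Promoter windows are from RefSeq (GRCm38.p6), which matched 33 of 44 members.

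The members, the gene lists and the tests were chosen with earlier results of these data known. Values in every library are given for called members, members without overlap at a mean of at least 1 CPM, and the highest of each role, and for each list up to 5 called genes are named. The other members' values per library, and Wnt1, Gm26793, Sulf1, Ext2, Gsc and the closing section's genes, were added after their values were seen. Alternatives were scaling by RLE, by upper quartile or by totals only, no or a stricter filter, DESeq2 1.42.0, limma-voom (limma 3.58.1), non-robust dispersions, sex or replicate number as a term, and left-out libraries. Each library is a separate embryo. One gene of the receptor to ERK list is not reported here and was left out of its counts.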

Additional observations from a re-analysis of the deposited data

How the results depend on the processing

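Etv4 and Il17rd kept their direction and their calls in all 22 alternatives, with log2 fold changes of 0.70 to 0.98 for Etv4 and 0.71 to 0.85 for Il17rd. Called members numbered 2 or 3 in every alternative, all higher, the third being Fgf15 or Dusp6. Leaving out 1 library at a time gave 2 to 5 members without overlap that were higher and 0 to 1 that were lower. Fewer libraries separate more easily for any gene. The share over all tested genes is not given for these settings, so the counts are not a result about the members. Over all genes, 1050 were called. DESeq2 called 1622, of which 661 were lower (398 in the main analysis). Lower calls numbered 245 with sex as a term. Without control replicates 1 and 2 there were 656 calls, 194 of them lower. Leaving out 1 library gave 636 to 1025 calls, 430 to 707 higher and 192 to 433 lower. Upper quartile scaling gave 576 higher and 538 lower, against 652 and 398. Scaling moved the median log2 fold change by at most 0.037 in size. Members near 0 changed sign. Leaving out 1 library gave -0.018 to 0.34 for Fgf13, -0.10 to 0.12 for Flrt3, -0.20 to 0.43 for Fgfr4, -0.067 to 0.078 for Fgfrl1, -0.057 to 0.092 for Frs2, -0.0084 to 0.37 for Fgf10, -0.66 to 0.15 for Fgf3 and -0.16 to 0.16 for Fgf18. Without p53_activated replicates 4 and 5 the values were -0.19 for Fgf13, 0.12 for Flrt3, -0.035 for Fgfr4, -0.047 for Frs2, 0.092 for Fgf3 and 0.17 for Fgf18. Without control replicates 1 and 2 they were 0.18 for Flrt3 and -0.00042 for Fgf14. Limma-voom gave -0.13 for Fgfr4, 0.013 for Fgfrl1 and 0.028 for Fgf18, upper quartile scaling -0.013 for Frs2 and the sex term 0.054 for Fgf3. The cause was not tested. Fgfr4, Fgf14 and Fgf18 did not pass the stricter filter and have no value there. With the replicate block 804 genes and 2 members were called, and Fgfr4 was at -0.10. Same-numbered libraries correlated by -0.05 to 0.11 in their deviations from the group means, and 1 of 5 matched its own number best. That comparison cannot show whether several replicate numbers share a block. In both groups replicates 4 and 5 had the highest summed levels of epithelial, muscle, and endothelial or blood markers. What they share was not tested. Members under 1 CPM had SEs of up to 0.58 on the log2 scale. At this depth differences of that size, and larger ones, could go uncalled. Fgf12, near 1 CPM, did not pass at -0.88 ± 0.42 (edgeR adjusted p = 0.229).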

Other observations

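Among genes outside the FGF pathway proper, Ndst1, which starts the sulphation of heparan sulphate, had 8.397, 16.9, 16.6, 38.2 and 32.3 CPM in p53_activated libraries, against 7.45, 14.2, 7.77, 9.19 and 10.1 CPM in control libraries. Its log2 fold change of 1.22 ± 0.36 did not pass (edgeR adjusted p = 0.0645). It passed in 3 of 22 alternatives, which were DESeq2, non-robust dispersions and the fit without p53_activated replicate 1 (adjusted p = 0.00647). Without p53_activated replicates 4 and 5 its value was 0.54. Its highest values were in p53_activated replicates 4 and 5, as were those of Fgfr1, Crkl and Nf1. Fgfbp1, a carrier protein that releases FGFs from the matrix, had 1.44, 2.99, 1.18, 0.66 and 0.14 CPM in p53_activated libraries, against 0.00, 0.16, 0.58, 0.19 and 0.15 CPM in control libraries, and had too few counts to test. All p53_activated libraries but replicate 5 lay above all control libraries in Fgfbp1. Klb and Kl, the co-receptors of the endocrine FGFs, averaged 0.195 and 0.0066 CPM in p53_activated and 0.144 and 0.024 CPM in control libraries.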
